A study of Rattus norvegicus and Sus scrofa and Bos taurus with 188 samples.

Results

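Genes for potassium, calcium, sodium and chloride channels, TRP channels, ligand-gated receptors and the channels of calcium stores were examined in the RNA of pig morulae. The members were all genes whose symbol starts with the name of one of these families (KCN, CACN, CLCN, GABR, CHRN, P2RX and ASIC, SCN followed by a digit, TRPA, TRPC, TRPM and TRPV, and GRIA, GRIK and GRIN) together with the numbered HCN, ITPR, RYR, ORAI, STIM and PIEZO genes, and 229 of the 15877 gene names in the table qualified. They are spread over 492 of its 37571 transcript rows. The rule itself uses symbols and no measured value, though it was set with earlier results of these data known. Of the members, 190 encode subunits of the pore itself or close relatives of them, 37 encode auxiliary subunits or regulators, and 2 match by symbol alone. These are TRPC4AP, a protein that binds TRPC4 and serves a ubiquitin ligase, and GRINA, a membrane protein related to inhibitors of cell death.

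The series covers gametes and early embryos of several mammals, with 188 samples in its labels here. The values come from 1 group, pig embryos at the morula stage with the mark PG, which the labels of sister samples use for parthenogenetic activation, that is, an egg started into development without sperm. The 4 RNA libraries of this group (replicates 1 to 4), made with Smart-seq2, which copies polyadenylated RNA of few cells, are merged in 1 deposited column of FPKM, fragments scaled to the length of the transcript and to the size of the library. The breed, the number of embryos per library and the way of activation are not given in the sources used here for this group. A gene is represented by its highest row, and 1 FPKM serves as the level above which a gene is counted. With a single merged column there is no spread between replicates and no test, library depth cannot be read from it, and no other stage was analysed here. Every comparison below is between genes of the same embryos.

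Ion channels are membrane proteins that open a path for selected ions. Voltage-gated channels respond to the membrane potential, ligand-gated receptors to a transmitter or proton, and TRP channels to chemical and physical signals. They are best known from neurons and muscle, and many are built from several pore subunits with auxiliary subunits that steer their traffic and gating. In eggs the best described channels are those of calcium: at fertilization or artificial activation, inositol trisphosphate receptors release calcium from the endoplasmic reticulum in repeated waves, and store-operated channels at the cell surface, formed by ORAI proteins and opened by the STIM sensors, refill the store. TRPM7 and T-type calcium channels bring in calcium in mouse eggs. In the compacting embryo, sodium pumps, with potassium leaving through channels, help to set the membrane potential.

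The family as a whole was low. Of the 229 members, 27 (11.8%) stood at 1 FPKM or more, against 48.8% of all genes in the table. A level of 10 FPKM or more was reached by 3 members (1.31%), against 20.2% of all genes. At the other end 58 members (25.3%) were listed at 0, against 17.3% of all genes, and 57 lay above 0 and under 0.1 FPKM. The largest class, 87 members (38.0%), stood from 0.1 to under 1 FPKM. The median member was at 0.0994 FPKM and the median gene of the table at 0.916 FPKM, a difference of -0.80 on the log2(FPKM + 1) scale. Even the members counted as above the threshold were low: their median was 2.25 FPKM, and that of all genes at 1 FPKM or more was 6.89 FPKM. Members and all genes had the same median number of transcript rows, 2. This median differed between kinds of channel, with 1 for potassium and HCN genes and 5.5 for CACNB genes. With the mean of all rows in place of the highest, 6.55% of members and 41.8% of all genes reached 1 FPKM. In merged RNA of whole embryos, a low level in every cell and a higher level in few cells cannot be told apart.

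**Figure D1:**
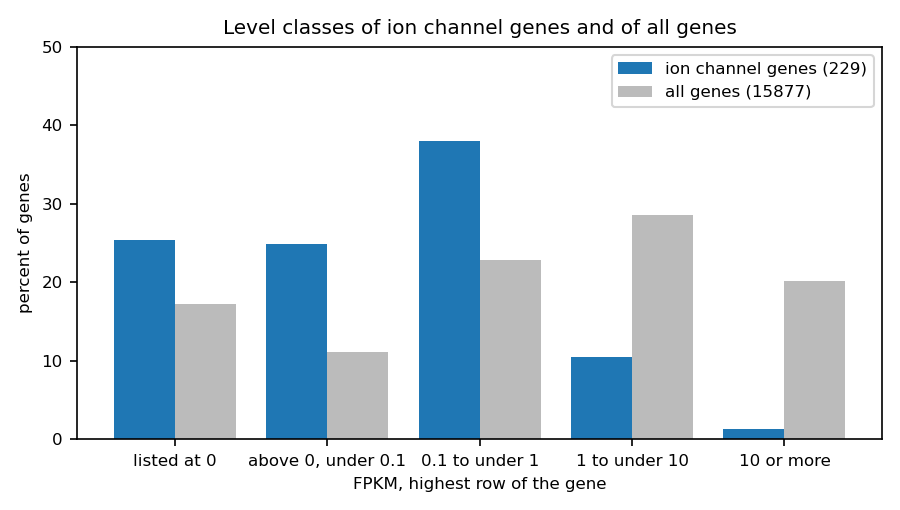
Percent of genes (vertical axis) in 5 classes of level, by the FPKM of the gene's highest row, for the 229 ion channel genes (blue) and all 15877 genes (grey). The blue bars are higher in the classes at 0, under 0.1 and 0.1 to under 1 FPKM, and at 10 FPKM or more they reach 1.31% against 20.2%.

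Their combined level was small and rested on few genes. With all rows summed, the 229 members came to 150.8 FPKM, or 0.0495% of the FPKM total of the table. The 4 highest, ORAI1, CLCN5, GABRR2 and KCNN3, held 35.7% of the sum of the members' highest rows, and no other member reached 5 FPKM. Between 2 and 5 FPKM lay 12 members, and 11 stood from 1 to under 2 FPKM. The 1 FPKM line falls within a dense stretch: KCNAB2 at 1.01 FPKM and KCNN2 at 1.00 FPKM were just inside, and KCNAB3 at 0.978 FPKM and GRIA3 at 0.943 FPKM just outside. In all, 23 members stood from 0.5 to under 1 FPKM, so a small shift of the line changes which genes count as above it.

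**Figure D2:**
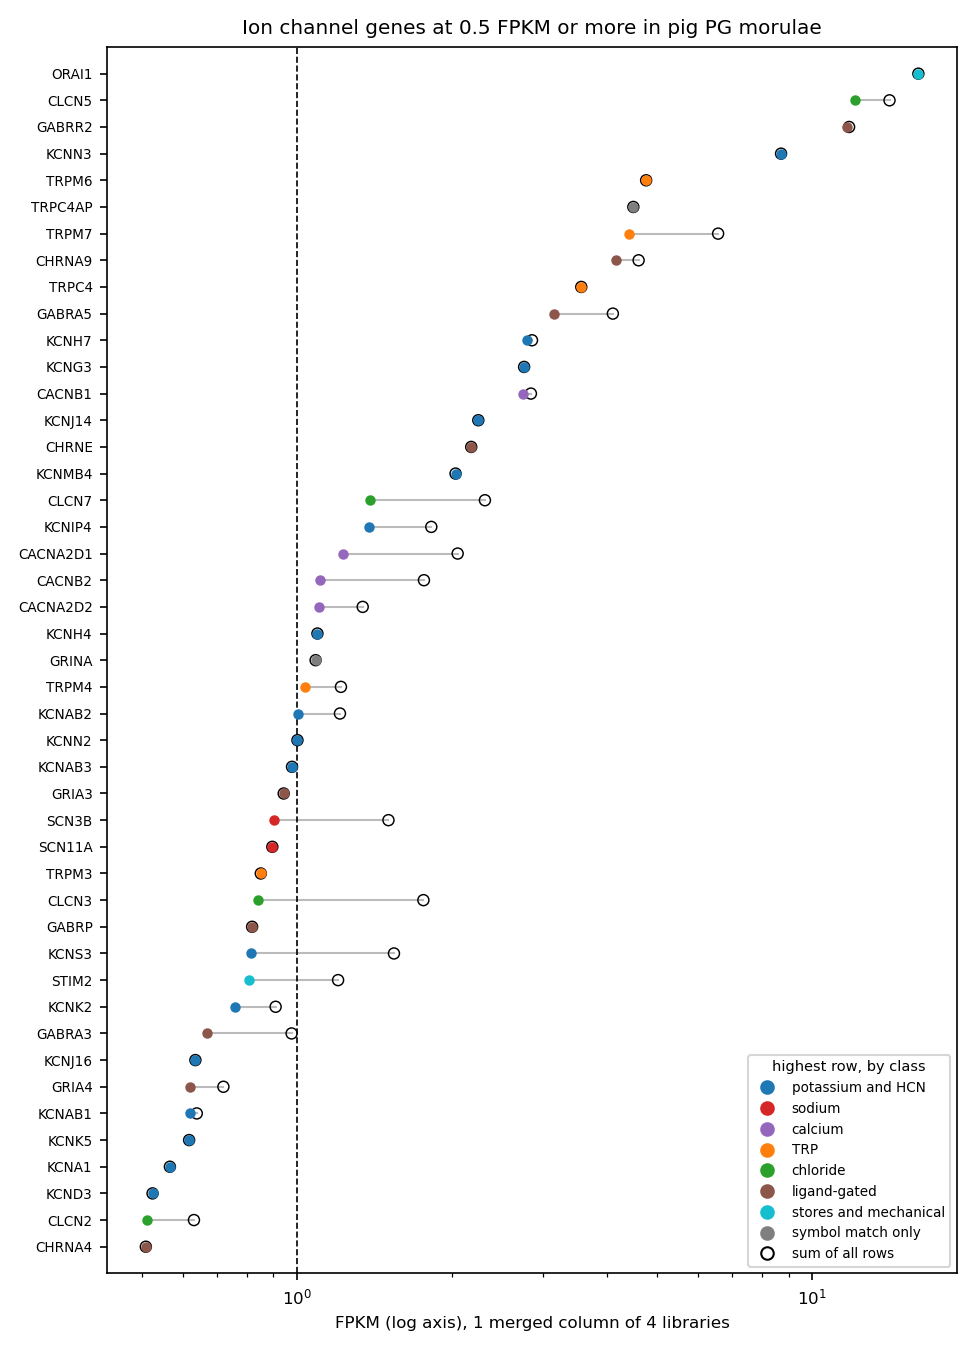
FPKM on a log axis for 45 of the 50 ion channel genes at 0.5 FPKM or more, in order of their highest row (filled points, coloured by class), with the sum of all rows of the gene as an open circle and 1 FPKM as a dashed line. ORAI1 leads at 16.1 FPKM, and the points crowd around the dashed line, where the open circles of SCN3B, CLCN3, KCNS3 and STIM2 lie on its other side.

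The calcium store genes held the highest member of all. ORAI1, the pore subunit of the store-operated calcium channel, stood at 16.1 FPKM in its single row (transcript ENSSSCT00000042940.1), which places it at rank 2378 among the 15877 genes. Its paralogues ORAI2 and ORAI3 stood at 0.0419 and 0.0350 FPKM. The sensors that open ORAI channels when the store empties were lower than ORAI1 in both cases, with STIM2 at 0.806 FPKM and STIM1 at 0.0861 FPKM. The rows of STIM2 summed to 1.20 FPKM, over 0.806 and 0.397 FPKM in its main transcripts, and so crossed the line. Of the 5 genes of store-operated entry, ORAI1 was thus the sole one above the threshold when the highest row is taken.

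The release channels of the store were all below 1 FPKM. ITPR1, the inositol trisphosphate receptor best known from egg activation, stood at 0.467 FPKM, ITPR2 at 0.270 FPKM and ITPR3 at 0.212 FPKM. The ryanodine receptors, the release channels of muscle and neurons, were lower still, with RYR2 at 0.192 FPKM and RYR3 at 0.0485 FPKM. RYR1 was not analysed here. PIEZO1, a channel opened by stretch of the membrane, stood at 0.372 FPKM. In this class of 11 genes, then, ORAI1 was the sole member above the threshold. All 11 had a value above 0, while 17.3% of all genes were listed at 0.

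The proteins around the calcium channels were at other levels. A list of 48 measured calcium pumps, exchangers, phospholipases, sensors and mitochondrial uptake genes held 26 (54.2%) at 1 FPKM or more, with a median of 1.79 FPKM, against 48.8% of all genes. The calcium sensor gene CALM3 stood at 145 FPKM, MCUB, the inhibitory relative of the mitochondrial uniporter pore, at 180 FPKM, and the store chaperone CALR at 51.3 FPKM. TMCO1, which relieves overfilled stores, was at 46.9 FPKM, SARAF, which turns store-operated entry off, at 16.9 FPKM, and the store pump ATP2A2 at 9.50 FPKM. The phospholipase C genes that make inositol trisphosphate were low, with PLCD1 at 3.11 FPKM and PLCG1 at 1.62 FPKM above the line and PLCB1, PLCB2, PLCB3, PLCB4, PLCD3, PLCD4, PLCE1, PLCG2 and PLCZ1 below it. PLCZ1, the sperm factor that starts calcium waves at fertilization, stood at 0.198 FPKM in these embryos. The calcium genes outside the channel families were thus not low as a list.

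Voltage-gated calcium channels showed a split between pore and partner. None of the 10 CACNA1 genes, which encode the pore, reached 1 FPKM. The highest were CACNA1E at 0.163 FPKM and CACNA1D at 0.142 FPKM. CACNA1F, CACNA1H and CACNA1G, the last 2 of the T type, lay between 0.00529 and 0.0123 FPKM. CACNA1A, CACNA1C, CACNA1I and CACNA1S were listed at 0, as was CACNA1B, whose rows belong to an unbroken run of zeros that ends the table. The auxiliary genes stood higher. CACNB1, a cytoplasmic beta subunit, was at 2.75 FPKM, and CACNB2 was at 1.11 FPKM (1.76 FPKM over its rows). CACNA2D1 and CACNA2D2, extracellular alpha2-delta subunits, were at 1.23 and 1.10 FPKM. CACNA2D4 (0.416 FPKM), CACNB4 (0.335 FPKM), CACNA2D3 (0.310 FPKM) and CACNB3 (0.0381 FPKM) were below the line. Of these 8 beta and alpha2-delta genes 4 thus stood above 1 FPKM and 0 were listed at 0, against 0 and 5 of the 10 pore genes. The median number of rows was 5.5 for CACNB, 3.5 for CACNA2D and 2 for CACNA1 genes. With the mean of all rows, 0 of the 26 calcium channel genes reached 1 FPKM. The 8 CACNG genes, whose products accompany calcium channels or AMPA receptors, were low, led by CACNG7 at 0.415 FPKM, with 4 listed at 0.

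In the potassium channel complexes the picture was mixed: 1 partner gene stood above the pore genes in the BK and Kv4 complexes, and all 3 beta subunit genes did so in the Kv1 complex. KCNMB4, an auxiliary subunit of the large-conductance calcium-activated channel, stood at 2.03 FPKM and its pore gene KCNMA1 at 0.387 FPKM, while the other auxiliary genes, KCNMB3 at 0.102 FPKM and KCNMB1 listed at 0, were below that pore gene. KCNIP4, a calcium-binding partner of Kv4 channels, was at 1.38 FPKM, above the Kv4 pore genes KCND3 (0.525 FPKM), KCND2 (0.256 FPKM) and KCND1 (0.0633 FPKM). KCNIP3 (0.312 FPKM), KCNIP1 (0.201 FPKM) and KCNIP2, listed at 0, were below KCND3, and the medians of partners and pore genes were 0.257 and 0.256 FPKM. KCNAB2, KCNAB3 and KCNAB1, the beta subunits of Kv1 channels, were at 1.01, 0.978 and 0.621 FPKM, while of the 7 Kv1 pore genes the highest was KCNA1 at 0.567 FPKM and the median was 0.104 FPKM. KCNG3, a silent subunit that conducts only together with other pore subunits, stood at 2.76 FPKM. Across all members, 7 of 37 auxiliary genes (18.9%) and 18 of 190 pore genes (9.47%) reached 1 FPKM, while 13 auxiliary genes (35.1%) and 45 pore genes (23.7%) were listed at 0, so auxiliary genes had the larger share at both ends. The medians of both sets were close, at 0.0994 and 0.0942 FPKM, and these complexes were singled out after their values were seen.

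**Figure D3:**
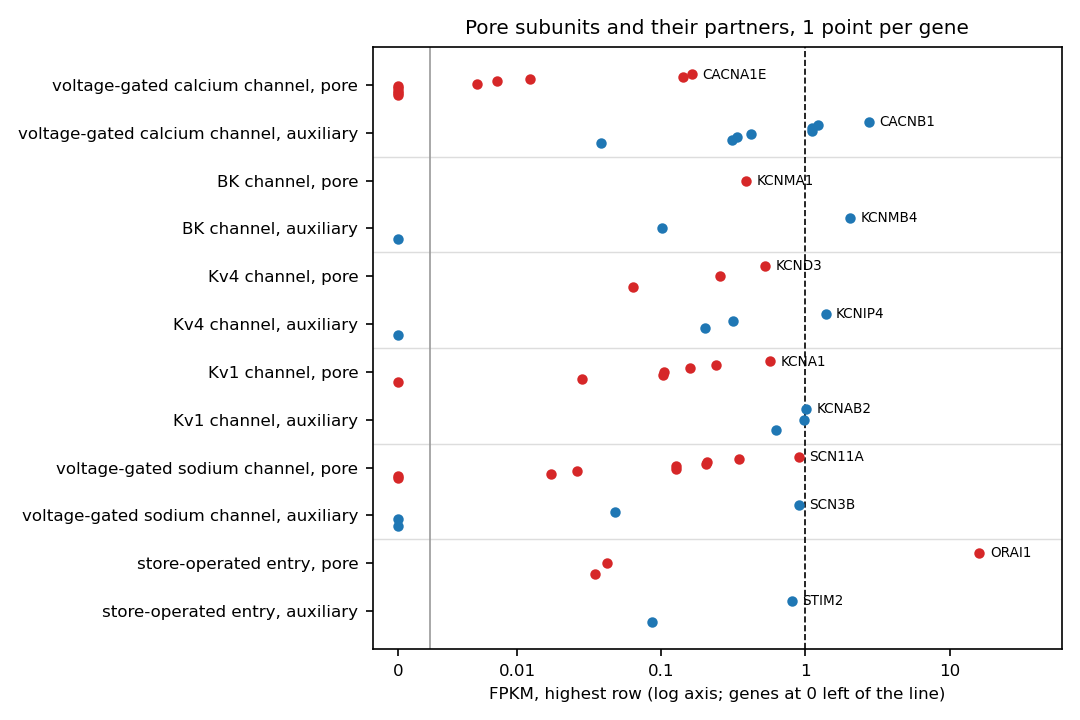
FPKM of the highest row on a log axis, 1 point per gene, for pore subunits (red) and the auxiliary subunits, or STIM sensors, that join them (blue) in 6 channel complexes, with genes at 0 left of the grey line, 1 FPKM dashed and the highest gene of each row of points named. In the calcium, BK, Kv4 and Kv1 complexes the highest partner lies right of the dashed line and the highest pore gene left of it, whereas in store-operated entry ORAI1 lies right of it and STIM2 left. The calcium channel partners shown are the beta and alpha2-delta genes. The 8 CACNG genes, with a highest value of 0.415 FPKM and 4 listed at 0, are not plotted.

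Potassium channels made up the largest class, with 92 genes including the 4 HCN pacemaker channels, of which 9 (9.78%) stood at 1 FPKM or more and 30 were listed at 0. KCNN3, a small-conductance channel opened by calcium through bound calmodulin, was by far the highest, at 8.70 FPKM in 1 row (ENSSSCT00000007166.3). Its relative KCNN2 stood at 1.00 FPKM, KCNN4 at 0.426 FPKM and KCNN1 at 0.0918 FPKM. The EAG-related channel gene KCNH7 was at 2.80 FPKM and KCNH4 at 1.10 FPKM, while KCNH2, whose channel repolarizes the heart, was at 0.249 FPKM. Of the 13 inward rectifiers, which hold the resting potential in many cells, KCNJ14 stood at 2.25 FPKM and KCNJ16 at 0.635 FPKM, and 7 were listed at 0. The calcium-activated KCNN3 thus led the class, ahead of KCNH7.

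The tandem-pore potassium channels, which carry background leak currents, had no member at 1 FPKM. Among their 15 genes KCNK2 was highest at 0.758 FPKM (0.909 FPKM over its rows), followed by KCNK5 at 0.618 FPKM and KCNK1 at 0.389 FPKM, and 4 were listed at 0. The delayed rectifier and related genes of the KCNQ family were also low, with KCNQ5 at 0.167 FPKM, KCNQ1 at 0.0309 FPKM and the others listed at 0. Silent subunits other than KCNG3 were led by KCNS3 at 0.813 FPKM, which crossed the line at 1.54 FPKM with its rows summed. The KCNE family, small partners of KCNQ and other channels, had KCNE2, KCNE3, KCNE4 and KCNE5 listed at 0. KCNT1 and KCNT2, sodium-activated channels, were listed at 0 in the run of zeros at the end of the table, so nothing is said of their expression.

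No sodium channel gene reached 1 FPKM. Of 10 pore genes the highest was SCN11A, a channel of pain-sensing neurons, at 0.896 FPKM, followed by SCN1A at 0.348 FPKM and SCN4A, the skeletal muscle channel, at 0.208 FPKM. SCN3A and SCN7A were listed at 0. SCN3B, a beta subunit, was at 0.902 FPKM in its highest row and at 1.51 FPKM over its 3 rows, and of the other beta genes SCN4B stood at 0.0482 FPKM while SCN2B was listed at 0. The genes that make the fast sodium current of nerve and muscle were thus at under 1 FPKM in every case when the highest row is taken.

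**Figure D4:**
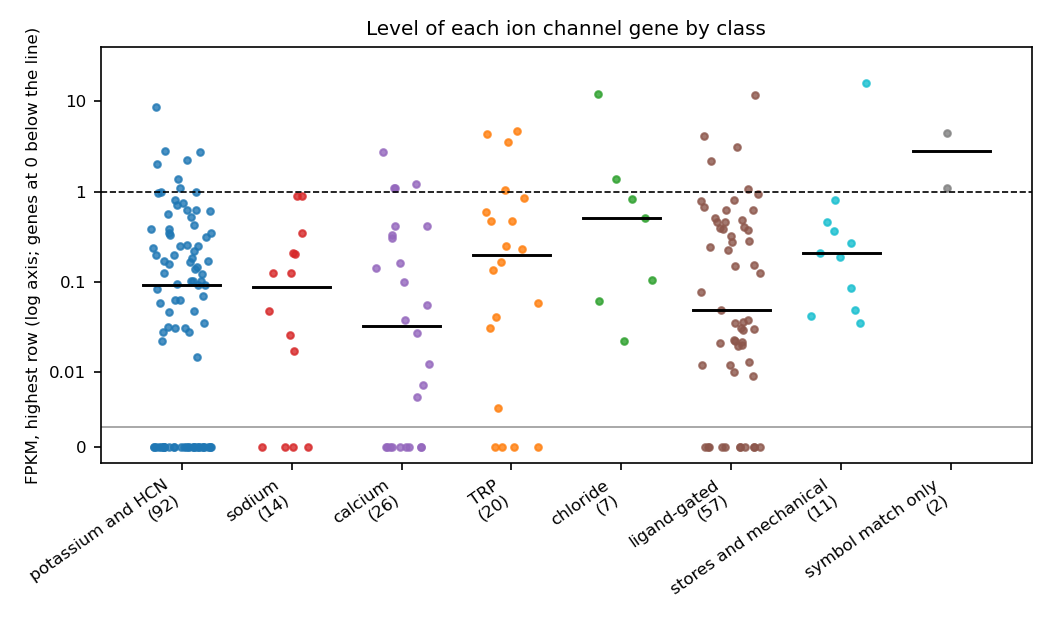
FPKM of the highest row on a log axis for each of the 229 members by class, with the number of genes under each class, black bars at the class medians, 1 FPKM dashed and genes at 0 below the grey line. The chloride class has the highest median of the 7 channel classes, 0.512 FPKM, and the calcium channel class the lowest, 0.0327 FPKM, and the leading gene of each class stands well above the rest in the potassium, chloride, ligand-gated and store classes.

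Among the 20 TRP channels, 4 (20.0%) stood at 1 FPKM or more, and 3 of them belong to the TRPM family. TRPM6 and TRPM7, channels for magnesium and calcium that carry a kinase domain on the same protein, were at 4.76 and 4.40 FPKM. TRPM7 came to 6.57 FPKM over its rows, with transcripts at 4.40, 1.72 and 0.447 FPKM, whereas nearly all of TRPM6 lay in 1 row. TRPM4, a sodium-permeable channel opened by calcium, stood at 1.04 FPKM and TRPM3 at 0.851 FPKM, while TRPM5 and TRPM8, the cold receptor, were listed at 0. TRPC4, a receptor-operated cation channel, was at 3.56 FPKM, and its relatives TRPC6 (0.479 FPKM), TRPC1 (0.250 FPKM), TRPC7 (0.234 FPKM) and TRPC5 (0.0312 FPKM) were below the line. TRPC4AP, named for its binding to TRPC4, stood at 4.50 FPKM but encodes no channel. The TRPV family was led by TRPV4 at 0.471 FPKM, and the sensory channels TRPV1 and TRPA1 were listed at 0. The kinase-bearing pair TRPM6 and TRPM7 therefore led this class.

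Chloride channel genes of the CLCN family had the highest class median, 0.512 FPKM over 7 genes. All 7 had a value above 0, while 17.3% of all genes were listed at 0. CLCN5, a chloride-proton exchanger of endosomes, stood at 12.1 FPKM in transcript ENSSSCT00000026087.2, which is 85.8% of the 14.1 FPKM over its rows. CLCN7, the lysosomal exchanger, was at 1.39 FPKM and at 2.32 FPKM over its rows, which were split between transcripts at 1.39 and 0.928 FPKM. OSTM1, the partner that CLCN7 needs to be stable, stood at 8.95 FPKM. CLCN3, another endosomal exchanger, was at 0.840 FPKM but crossed the line at 1.76 FPKM with its 5 rows summed. The channel of the cell surface, CLCN2, was at 0.512 FPKM and CLCN1, the muscle channel, at 0.0226 FPKM. CLCN4 and CLCN6 were at 0.106 and 0.0624 FPKM. The genes above the threshold in this class, CLCN5 and CLCN7, are exchangers of internal membranes. The exchanger CLCN3 was below the threshold in its highest row, so this trait is not particular to the genes above it.

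Of the 57 ligand-gated receptor genes, 5 (8.77%) stood at 1 FPKM or more, all of them for GABA or acetylcholine receptors. GABRR2, a rho subunit that can form a GABA-gated chloride channel by itself, was the third highest member at 11.7 FPKM, 99.2% of it in transcript ENSSSCT00000004771.3. GABRA5 was at 3.16 FPKM (4.10 FPKM over its rows). Most other GABA-A receptors need a beta subunit, and GABRB2 and GABRB1 stood at 0.375 and 0.224 FPKM. GABRP and GABRA3 stood at 0.819 and 0.670 FPKM, and 4 of the 17 GABR genes were listed at 0. RNA for a subunit that can form a channel by itself was thus above the line.

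The acetylcholine receptors differed in level between partners. CHRNA9, known from hair cells, stood at 4.15 FPKM, while CHRNA10, with which it pairs there, was at 0.0304 FPKM. CHRNE, the subunit of the adult muscle receptor, was at 2.18 FPKM, and its partners there, CHRNB1 (0.463 FPKM), CHRND (0.154 FPKM) and CHRNA1 (0.126 FPKM), were below the line. CHRNA4 and CHRNA5 were at 0.509 and 0.493 FPKM. None of the 15 CHRN genes was listed at 0, against 17.3% of all genes. The partners of a receptor were thus at unequal levels in this family.

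Among the AMPA, kainate, NMDA, ATP and proton receptors no gene reached 1 FPKM, leaving aside GRINA at 1.09 FPKM, which is no receptor. GRID1, a delta receptor gene related to the glutamate receptors that the symbol pattern does not take, stood at 1.08 FPKM. The AMPA receptor genes GRIA3 and GRIA4 were at 0.943 and 0.621 FPKM, GRIA2 at 0.0361 FPKM, and GRIA1 was listed at 0. All 5 kainate receptor genes were at or under 0.0496 FPKM, the value of GRIK2. Of 7 NMDA receptor genes GRIN3A was highest at 0.392 FPKM, the others lay at or under 0.0309 FPKM, and GRIN1, the subunit every such receptor needs, was listed at 0 in the run of zeros at the end of the table. The ATP receptor P2RX7 stood at 0.406 FPKM (0.715 FPKM over its rows) and the proton-gated ASIC3 at 0.463 FPKM.

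Channels that the symbol pattern does not take stood between the members and the table as a whole. Of 73 such genes measured, 20 (27.4%) reached 1 FPKM, against 48.8% of all genes, and their median was 0.195 FPKM. They were led by VDAC3, a pore of the mitochondrial outer membrane, at 142 FPKM, CLIC4 at 68.8 FPKM, the lysosomal calcium channel MCOLN1 at 11.1 FPKM and ANO6, a scramblase and channel, at 9.27 FPKM. LRRC8A, the obligatory subunit of volume-regulated anion channels, was at 0.537 FPKM (0.983 FPKM over its 3 rows) beside LRRC8D at 8.61 FPKM in 1 row. Another list held 39 measured genes for proteins that bind, traffic or regulate channels. Of these, 17 (43.6%) stood at 1 FPKM or more, against 48.8% of all genes. The highest were the kinase gene SGK1 at 64.0 FPKM and the cargo receptor genes CNIH1 and CNIH4 at 46.9 and 36.7 FPKM. OXSR1 followed at 11.2 FPKM. At the other end 9 of the 39 were listed at 0, among them CNIH3, DPP10 and ABCC9, against 17.3% of all genes. The KCTD genes, which share a tetramerization domain with potassium channels but encode adaptors of ubiquitin ligases and other soluble proteins, reached 1 FPKM in 9 of 15 cases (60.0%), with KCTD9 at 21.6 FPKM, KCTD5 at 10.8 FPKM, KCTD20 at 8.50 FPKM and KCTD6 at 4.69 FPKM.

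**Figure D5:**
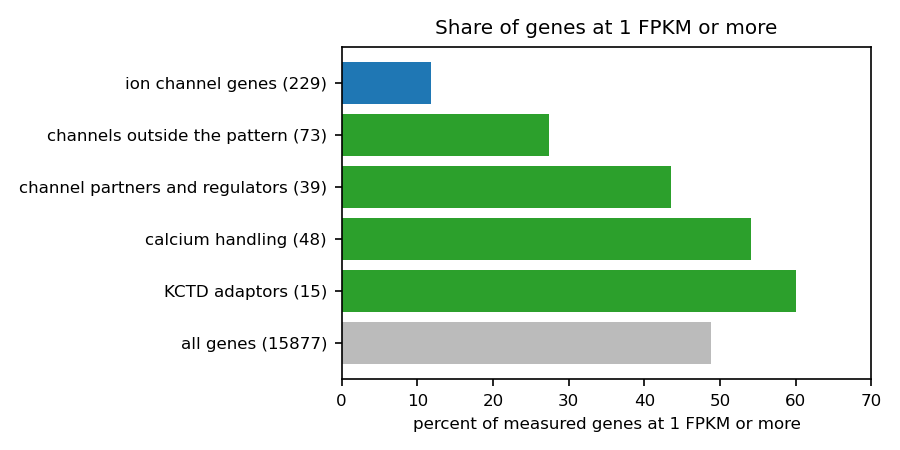
Percent of measured genes at 1 FPKM or more (horizontal axis) for the 229 ion channel genes (blue), 4 related gene lists (green) and all genes of the table (grey), with the number of genes in brackets. The ion channel genes have the shortest bar, 11.8%, followed by channels outside the pattern at 27.4%, and the calcium handling and KCTD lists lie above the 48.8% of all genes.

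The labelled stage was set beside marker genes. The marker lists were chosen with earlier results of these data known, so their counts are a description and no test of the stage. Of all genes in the table, 48.8% stood at 1 FPKM or more. All 12 markers listed for the morula stood at 1 FPKM or more, from GATA3 at 3.16 FPKM to TFAP2C at 194 FPKM. Of 11 measured markers of cumulus and granulosa cells, which surround the egg, 1 reached 1 FPKM (PTGS2, 1.22 FPKM), with CYP19A1 at 0.835 FPKM and FSHR, FOXL2 and TNFAIP6 listed at 0. Since many members are known from excitable cells, markers of these were included. Of 11 neuron markers 7 stood at 1 FPKM or more, with NEFL at 20.2 FPKM, NEFH at 7.25 FPKM and STMN2 at 5.57 FPKM, while SNAP25 was at 0.461 FPKM, GAP43 at 0.0352 FPKM and RBFOX3 at 0.0251 FPKM. Of 10 muscle markers 2 did, ACTN2 at 90.6 FPKM and TNNI3 at 8.05 FPKM, and the muscle genes DES and MYH7 were at 0.0527 and 0.0330 FPKM. The part of other cell types in the levels of the channel genes was not tested.

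For several members the choice of row decides the count. Of the 27 members above the threshold 9 have 1 row and 18 have several, and in 8 of these 18 the highest row held at least 90% of the gene's sum. The lowest shares were those of CACNA2D1 (59.8%), CLCN7 (59.9%), CACNB2 (63.0%) and TRPM7 (67.0%). With rows summed, 31 members reached 1 FPKM, the 4 added being CLCN3, KCNS3, SCN3B and STIM2.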

How the data were processed

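Per the file headers, each Ensembl transcript has a gene symbol and 1 FPKM value, computed by the authors (scaled to transcript length and library size). The 4 libraries of the group were merged by the authors into 1 column, as the table's name says, by a step that the labels do not describe. The submitters' processing notes name, for all data types together, TopHat2 (2.1.1), Bowtie2 (2.1.0, 2.2.5), Cufflinks (2.2.1), Trim Galore (0.6.4), cutadapt (1.11), CASAVA (1.8) and Bismark (0.7.0), with susScr11 among the builds. The depth is unknown: 77 of the 492 member rows lay above 0 and under 1e-06 FPKM, so whole reads could not be recovered.

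A gene's value was its highest row. Members were counted at 1 FPKM or more beside all genes, with Python 3.11.15 and pandas 2.3.3, and medians were taken on the FPKM and log2(FPKM + 1) scales. The counting was tested on 20 simulated tables. No test was possible with 1 column. The text names every member at 1 FPKM or more, those at 0.5 FPKM or more, the highest of each class, calcium genes known from eggs and the 4 highest genes of each related list, apart from some items that are not reported here; other names, and the grouping of pore subunits with their partners, were chosen after their values were seen. The members and the 8 gene lists were chosen with earlier results of these data known. The table ends in 474 rows at 0, which hold 4 members (CACNA1B, GRIN1, KCNT1 and KCNT2), described as listed at 0. Alternatives changed the row, the threshold, the scaling, a filter on low values, the zero rows and the members counted.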

Additional observations from a re-analysis of the deposited data

How the results depend on the processing

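The share of members at 1 FPKM or more was 11.8%. It was 13.5% with rows summed, 12% without the zero rows at the end of the table and 9.47% for pore subunits alone. These values lay within the 95% binomial interval used as the limit for a change. The settings recount the same genes, so this interval is a chosen limit and measures no spread between libraries. The share was 6.55% with the mean of all rows and 23.7% among genes at 0.1 FPKM or more. After scaling to a sum of 1000000 (TPM), which moves the line to a lower FPKM, it was 32.3%. Under each of these settings, and at 0.5 and 5 FPKM, it stayed below the share of all genes, which ran from 28.4% (5 FPKM) to 68.1% (0.1 FPKM filter).

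At 0.5 FPKM the share was 21.8% for members, 19.6% for potassium and HCN channels and 21.1% for ligand-gated receptors. At 5 FPKM it was 1.75% for members, 1.09% for potassium and HCN channels, 1.75% for ligand-gated receptors and 0% for calcium and TRP channels; the lists had 31.2% (calcium handling), 8.22% (channels outside the pattern), 20% (KCTD) and 15.4% (partners). After scaling to TPM it was 27.2% for potassium and HCN channels, 35.1% for ligand-gated receptors and 43.8% for channels outside the pattern. The smaller classes rose too, to 21.4% (sodium), 30.8% (calcium), 40% (TRP), 57.1% (chloride) and 36.4% (stores and mechanical), against 61.3% of all genes. Having few genes, these classes have wide binomial intervals. Their shares stayed inside them, which says little of how stable they were. For the other settings and for the lists, only shares that left the interval are given here. Among genes at 0.1 FPKM or more it was 20.5% for potassium and HCN channels, 40% for calcium channels, 48.8% for channels outside the pattern and 63.0% for partners. With the mean of rows it was 0% for calcium channels and 25.6% for partners.

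The members' median, 0.0994 FPKM, was 0.0626 FPKM with mean rows, 0.326 after scaling to TPM and 0.421 FPKM under the 0.1 FPKM filter. The log2 difference from all genes was -2.35 with a pseudocount of 0.1. Of the 50 members at 0.5 FPKM or more, 6 moved over 1.5 times with rows summed. No paired analysis was possible because the replicates share 1 merged column, and leaving out a replicate was not run for the same reason. No depth-based limit can be given.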
